A study of Mus musculus with 4 samples.

Results

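The 49 chromatin regulator genes described here encode the enzymes and readers that write, erase or read marks on histones and DNA, or that move nucleosomes. They were chosen by gene name, with earlier results of these data known. They comprise 7 genes grouped as methyltransferases of histone H3 lysine 4 (Kmt2e, a relative, among them), 4 other SET domain proteins, 5 acetyltransferases and 8 CHD remodellers. The rest are 7 SWI/SNF and ISWI remodeller genes with Bptf, 2 bromodomain readers, 6 Polycomb genes, 6 genes of DNA methylation and 4 demethylases and deacetylases. All 49 occurred among the 20001 genes of the site tables, and they held 7265 of the 833043 positions that the tables placed in a gene. N6-methyladenosine (m6A) is the most common internal mark of messenger RNA, and METTL3 is the catalytic subunit of the complex that deposits it while a transcript is being made. Reader proteins that bind the mark shorten the life of many transcripts, and in neural stem cells m6A has been linked to the turnover of mRNAs for histone-modifying enzymes. Long transcripts with large internal exons, such as those of the KMT2 and CHD families, are typical carriers of many sites.

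GLORI was applied to polyA RNA of mouse retinal organoids, which are stem cell cultures that form early retinal tissue. In GLORI, glyoxal and nitrite turn unmethylated A into inosine, which is sequenced as G, so the share of A among A and G reads at a position is its methylation level. Cells of the Rx:GFP line were used, carrying FKBP12F36V-HA at the C-terminus of endogenous Mettl3, a tag through which the small molecule dTAG13 directs a protein to the proteasome. All groups carried this degron, so no library represents untagged METTL3, and whether the line is 1 clone was not given in the sources used here. The dTAG13-0hr group received no dTAG13 and the dTAG13-8hr group received 125 nM for 8 h at day 6, with 2 libraries each, collected at the same time. The genotype labels name a different Mettl gene in each library, while the series title and design name METTL3, and the latter was followed here. Nothing in the labels says that replicates were separate cultures, so every p-value measures only the spread between these libraries. Loss of METTL3 protein was not measured in these data.

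Values for a gene are given in the order 0hr replicate 1, 0hr replicate 2, 8hr replicate 1, 8hr replicate 2. Listed positions start at 15 reads in all, of which 5 with A, and at a level of 10%, so an unlisted position can be unmethylated, under these limits or without reads. The number of listed sites can therefore move with depth. Reads summed over all listed sites were 52195855 and 54905380 in the 0hr libraries and 30102136 and 45966738 in the 8hr libraries. This sum also falls when fewer sites are listed, so it is not a measure of depth alone. Median reads per site were 78 and 80 at 0hr and 75 and 91 at 8hr. The first 8hr library was lowest on both measures, and the second 8hr library had the highest median. Conversion, the share of A read as G over a whole gene, had medians over the 49 genes of 95.5% and 95.7% at 0hr and 96.5% and 96.5% at 8hr. Both 8hr libraries were above both 0hr libraries in 21 of 49 members, or 42.9%, and in 40.9% of all genes; the part of conversion in the site numbers below was not tested. All 8 retinal progenitor markers (among them Rax, Pax6 and Six3) were listed in all 4 libraries, with summed gene coverage of 4229, 5201, 2941 and 4050.0. The 5 pluripotency markers were also listed throughout at 904, 948, 655 and 855, and 2 of 5 markers of neurons, 3 of 5 of pigment epithelium, 2 of 4 of surface ectoderm and 2 of 5 of mesoderm and endoderm were listed in all 4. The part of these other cells in the results was not tested.

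Together the chromatin regulators had 2240 and 2396 listed sites at 0hr and 1513 and 1822 at 8hr. Both 8hr libraries were below both 0hr libraries, with means of 2318 ± 110 (SD, n = 2) and 1668 ± 219 and a ratio of 0.719. The ratio over all genes was 0.714. An exact permutation test of 2 against 2 libraries cannot go below p = 0.333, so these totals are given without a test. Summed coverage of the members, the deposited signal per gene that is not scaled to library depth, was 6718, 7370.1, 5270.2 and 6898. The second 8hr library thus had 0.979 of the mean 0hr coverage and 0.786 of the mean 0hr site number. Per 100 units of coverage the members had 33.3 and 32.5 listed sites at 0hr and 28.7 and 26.4 at 8hr, and the groups did not overlap. Over all genes with coverage in every library the same quantity was 8.81, 8.52, 8.38 and 6.64.

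The lower number was spread over most of the genes. Of the 49 members, 48 reached a mean of 5 listed sites, and Hdac1 did not. Both 8hr libraries listed fewer sites than both 0hr libraries in 36 of these 48 (75.0%) and more in 0; the background over 10165 genes was 50.1% fewer and 4.3% more. After division by coverage, 26 members lay lower and 4 higher, against 40.5% and 10.4% of all genes. In 27 members the second 8hr library had more coverage than either 0hr library, and 22 of these (81.5%) still had fewer sites there than in either 0hr library, with 930 sites against 1172 and 1279. Only 1 of the 27 had more sites. Among the 4315 genes of the series with that coverage order, 55.8% had fewer sites and 13.9% more. Sites with a level of at least 40% numbered 854 and 891 at 0hr and 645 and 756 at 8hr, a ratio of 0.803 (all genes 0.772).

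**Figure D1:**
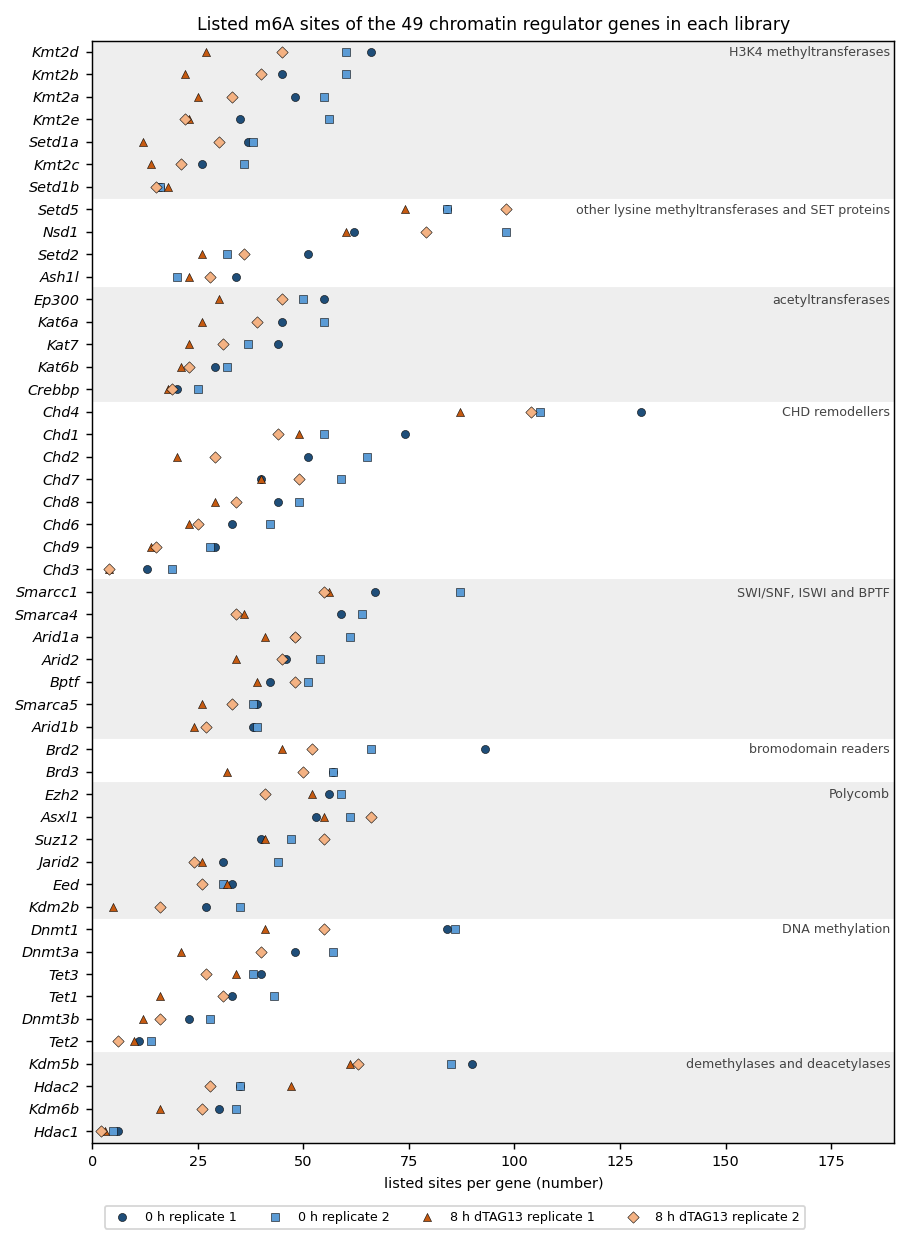
Number of listed m6A sites (x axis) of each of the 49 chromatin regulator genes (y axis, grouped by role), with 1 symbol per library and no averaging. The 8hr symbols lie left of both 0hr symbols for most H3K4 methyltransferases and DNA methylation genes, and overlap them for the 4 other SET domain proteins.

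The group of H3K4 methyltransferases, which mark promoters and enhancers, and their relative Kmt2e showed the lowest ratio among the role groups. The 7 genes together had 273, 321, 141 and 206 listed sites, a ratio of 0.584, while their summed coverage was 696, 630, 597 and 723, a ratio of 0.996. Listed sites and sites per coverage were lower in both 8hr libraries in 6 of 7, and Setd1b was the exception. Over all genes the shares were 50.1% for listed sites and 40.5% for sites per coverage. Kmt2d, an enhancer methyltransferase, had 66, 60, 27 and 45 sites and 77.5, 73.4, 42.2 and 38.2 sites per 100 coverage units. Kmt2a, a regulator of developmental genes, had 48, 55, 25 and 33 sites and had the highest mean of the 0hr libraries in sites per coverage among members, 75.9 per 100 units (70.0 and 81.7), although it was not the highest in either library. The 0hr and 8hr values of both genes did not overlap on either scale. Kmt2e, a KMT2 relative that binds H3K4 methylation, had 35, 56, 23 and 22 sites, or 30.9, 52.0, 21.5 and 16.5 per 100 coverage units. Its 8hr values were close to each other and below both 0hr values, which differed by more than 1.5-fold. The remaining members Kmt2b, Kmt2c and Setd1a also lay lower at 8hr, whereas Setd1b, the catalytic subunit of a SET1 complex, had 16, 16, 18 and 15 sites with overlapping groups. The median log2 change in sites per coverage in this role group was -0.86.

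The other SET domain proteins overlapped between groups in site number but not in summed sites per coverage. Setd5, a SET domain protein that acts with deacetylase complexes, had 84, 84, 74 and 98 sites, and Nsd1, an H3K36 methyltransferase, had 62, 98, 60 and 79. In both genes the groups overlapped. Nsd1 had 61.5 and 83.7 sites per 100 coverage units at 0hr, the highest member value in the second library but not in the first. Setd2, which makes H3K36 trimethylation, had 51, 32, 26 and 36 sites, and Ash1l, another H3K36 methyltransferase, had 34, 20, 23 and 28. The 4 genes summed to 231, 234, 183 and 241, a ratio of 0.912. Non-overlapping site numbers were found in 0 of 4, beside 50.1% lower and 4.3% higher over all genes. Per 100 units of coverage the sums were 57.4, 50.2, 44.5 and 44.3, lower in both 8hr libraries, with a ratio of 0.825. Setd2 alone was lower in both 8hr libraries on that scale, at 87.1, 36.8, 35.4 and 34.9, and all 4 fitted changes were below 0, with a median of -0.18.

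All 5 acetyltransferases had fewer listed sites in both 8hr libraries. Their sum was 193, 199, 118 and 157 sites, while their summed coverage was 573, 572, 472 and 652, highest in the second 8hr library. Ep300 and Crebbp, the paired coactivators that acetylate enhancers, had 55, 50, 30 and 45 sites and 20, 25, 18 and 19 sites. Kat6b, a MYST family acetyltransferase, had 29, 32, 21 and 23 sites although its coverage was 66.4, 60.8, 82.0 and 85.5, higher in both 8hr libraries. Kat6a and Kat7, of the same family, had 45, 55, 26 and 39 sites and 44, 37, 23 and 31 sites. For all 5 the groups did not overlap in site number, and after division by coverage 3 of 5 still did not. Over all genes, 50.1% lay lower in site number and 40.5% in sites per coverage.

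CHD remodellers, ATPases that slide or evict nucleosomes, included the member with the most sites, Chd4, and 3 of the 5 members with the lowest estimates of change. Chd4, the ATPase of the NuRD complex, had 130, 106, 87 and 104 sites with a coverage of 262, 325, 184 and 206. Both quantities were lower at 8hr, so its sites per 100 coverage units, 49.6, 32.6, 47.2 and 50.5, overlapped. Chd3, its NuRD paralog, had 13, 19, 4 and 4 sites with a coverage of 64.2, 59.5, 54.0 and 106.0. The second 8hr library had the highest coverage of the gene and, with the first, the fewest sites. Chd2, which is mutated in a childhood epilepsy, had 51, 65, 20 and 29 sites at coverages between 103 and 128. Chd9, a large CHD protein, had 29, 28, 14 and 15 sites. In these 3 genes the groups did not overlap in sites or in sites per coverage. Chd1, which binds H3K4 trimethylation, had 74, 55, 49 and 44 sites, lower at 8hr, but overlapped per coverage. Chd6 and Chd8 were lower at 8hr on both scales, and Chd7, the gene mutated in CHARGE syndrome, overlapped with 40, 59, 40 and 49 sites. The 8 genes summed to 414, 423, 266 and 304 sites, a ratio of 0.681. Both 8hr libraries were lower in site number in 7 of 8, beside 50.1% of all genes. In sites per coverage they were lower in 5 of 8, beside 40.5%.

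In the SWI/SNF, ISWI and BPTF group, lower site numbers came with lower coverage for the core subunits. Smarca4, the ATPase of BAF complexes, had 59, 64, 36 and 34 sites and a coverage of 131, 137, 79.9 and 106. Smarcc1, a BAF scaffold subunit, had 67, 87, 56 and 55 sites and a coverage of 252, 306, 153 and 195. Smarca5, the ISWI ATPase, had 39, 38, 26 and 33 sites and a coverage of 293, 261, 164 and 158. For each of these 3 genes both sites and coverage were lower in both 8hr libraries, and sites per coverage overlapped for Smarca4 and Smarcc1 and were higher at 8hr for Smarca5, at 13.3, 14.6, 15.9 and 20.9 per 100 units. Arid1b, a DNA-binding BAF subunit, differed: its coverage was 68.1, 77.7, 78.0 and 91.7, higher at 8hr, and its sites were 38, 39, 24 and 27, lower at 8hr. Arid2, a subunit of the PBAF form, had 46, 54, 34 and 45 sites, and Arid1a and Bptf overlapped in site number. Of the 7 genes, 5 were lower in site number, and 3 were lower and 1 higher per coverage. Among all genes, 50.1% lay lower in site number, and 40.5% lower and 10.4% higher per coverage. Coverage itself, not scaled to depth, was lower in 28.1%. A separate entry named Smarca5-ps had 5, 13, 2 and 2 sites with a coverage of 101, 75.0, 132 and 181, so the split of reads between it and Smarca5 is uncertain.

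Brd2, a reader of acetylated histones, had 93, 66, 45 and 52 sites with a coverage of 226, 281, 151 and 194. Brd3, its paralog, had 57, 57, 32 and 50 sites with a coverage of 226, 274, 134 and 239. Site numbers of both were lower in both 8hr libraries, as in 50.1% of all genes, and sites per coverage overlapped. The tables also list Brd3os, an opposite-strand gene, and the strand use of the counting was not given in the sources used here, so Brd3 values carry that uncertainty.

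The Polycomb genes, which act in repression through H3K27 methylation and H2A ubiquitination, were the only role group whose sites of at least 40% were more numerous in both 8hr libraries, at 60, 70, 83 and 76. Together they had 240, 277, 211 and 228 sites, a ratio of 0.849. Ezh2, the H3K27 methyltransferase, had 56, 59, 52 and 41 sites. Its PRC2 partners Suz12 and Eed had 40, 47, 41 and 55 and 33, 31, 32 and 26 sites, with overlapping groups. Coverage of all 3 core PRC2 genes, not scaled to depth, was lower in both 8hr libraries, as in 28.1% of all genes. Ezh2 had 221, 249, 139 and 208, Suz12 had 245, 252, 212 and 202, and Eed had 207, 239, 148 and 169. With coverage centred on the library median, no change was called in any of the 3. Per 100 units of coverage, Suz12 was higher at 8hr, with 16.4, 18.6, 19.3 and 27.2 sites, as was Asxl1, a partner of the BAP1 deubiquitinase, with 40.1, 35.7, 41.9 and 41.9. Kdm2b, which brings a PRC1 complex to CpG islands, went the other way with 27, 35, 5 and 16 sites, or 36.4, 50.0, 10.3 and 19.6 per 100 units. Jarid2, a PRC2 cofactor, had 31, 44, 26 and 24 sites. In site number, both 8hr libraries were below both 0hr libraries for Ezh2, Kdm2b and Jarid2, 3 of 6, beside 50.1% of all genes. Per coverage, 1 gene was lower and 2 were higher, beside 40.5% and 10.4% of all genes.

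The genes of DNA methylation and its removal had fewer sites in both 8hr libraries in 6 of 6. Dnmt1, the maintenance methyltransferase, had 84, 86, 41 and 55 sites with a coverage of 184, 216, 141 and 185. Dnmt3a and Dnmt3b, the de novo methyltransferases, had 48, 57, 21 and 40 and 23, 28, 12 and 16 sites. Tet1, Tet2 and Tet3, the dioxygenases that oxidise methylcytosine, had 33, 43, 16 and 31, 11, 14, 10 and 6, and 40, 38, 34 and 27 sites. Coverage overlapped between groups in all 6, and sites per coverage were lower at 8hr in 5, Dnmt3b being the exception. The shares of all genes that lay lower were 50.1% in site number and 40.5% in sites per coverage. The sum was 239, 266, 134 and 175 sites, a ratio of 0.612, and the median log2 change per coverage was -0.62.

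Kdm5b, an H3K4 demethylase, had 90, 85, 61 and 63 sites, 59.4, 58.8, 46.6 and 34.3 per 100 coverage units, and did not overlap on either scale. Kdm6b, an H3K27 demethylase, had 30, 34, 16 and 26 sites and was also lower on both scales. Among all genes, 50.1% lay lower in site number and 40.5% in sites per coverage. The class I deacetylase Hdac2 had the highest coverage of all members, 720, 805, 463 and 541, and the fewest sites per coverage at 0hr, 4.86 and 4.35 per 100 units, against 10.1 and 5.18 at 8hr. Its site numbers, 35, 35, 47 and 28, overlapped. Hdac1, its paralog, had 6, 5, 3 and 2 sites with a coverage of 81.5, 70.9, 57.0 and 73.8, and an entry named Hdac1-ps had 34, 33, 35 and 37 sites with a coverage of 590, 615, 378 and 488. The division of reads between those 2 entries is uncertain, so the low number for Hdac1 is not comparable with the rest.

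The change in log2 listed sites per coverage was tested with limma over 10165 genes. Of 48 members tested, 0 passed an adjusted p of 0.05, while 0.551% of all genes were called lower and 0.00984% higher. At an unadjusted p under 0.05, 12 members were lower and 0 higher, beside 17.4% and 1.29% of all genes, and edgeR with coverage as offset called 1 member. Effects were below 0 in 38 of 48 members with a median of -0.52, compared with 7178 of 10165 genes and a median of -0.35 over all genes tested. Relative to the median gene of each library, the split was 26 members below and 22 above 0 and the median -0.09, with 4529 below, 5636 above and a median of 0.09 over all genes, so most of the lower values were shared with the whole tables. The 5 lowest estimates belonged to Chd3, at -2.03 ± 0.51 (SE; limma adjusted p = 0.0626), Kdm2b, at -1.46 ± 0.40 (0.0771), Chd2, at -1.14 ± 0.35 (0.0949), Kmt2e, at -1.06 ± 0.39 (0.155), and Chd9, at -1.04 ± 0.32 (0.0965). Each was lower in 2 of 2 8hr libraries than in both 0hr libraries. No Chd3 position was listed in both libraries of either group. Chd3 reached an adjusted p of 0.0427 with edgeR, of 0.0283 when only genes with a mean of 10 sites were tested, and of 0.000808 by limma without the first 8hr library, but 0.0533 to 0.392 without any other 1 library. Without the second 8hr library, Kdm2b (0.00335) and Chd2 (0.0335) passed, and without the first, Chd9 (0.0122) and Kmt2e (0.0410) passed. The highest estimates belonged to Hdac2 (0.66 ± 0.58), Smarca5 (0.40 ± 0.46), Suz12 (0.39 ± 0.43), Eed (0.35 ± 0.46) and Chd4 (0.28 ± 0.30), with adjusted p between 0.573 and 0.723. These standard errors are about as large as the estimates. The coverage of all 5, not scaled to depth, was lower in both 8hr libraries, as in 28.1% of all genes. Without division by coverage the estimate was -0.38 for Smarca5, -0.14 for Eed and -0.30 for Chd4.

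**Figure D2:**
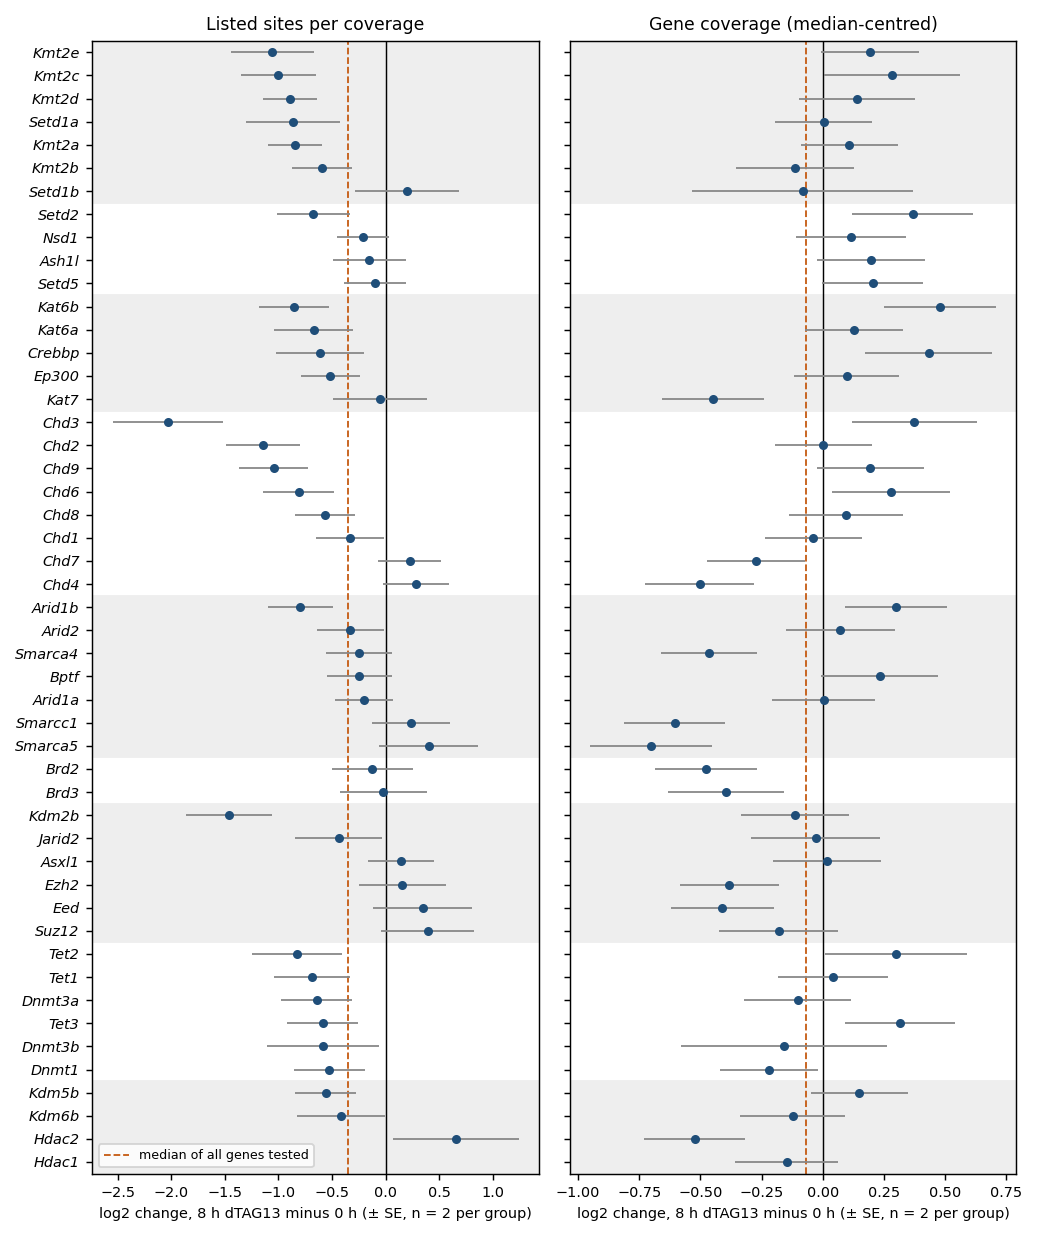
Fitted log2 change from 0hr to 8hr dTAG13 (x axis, points with SE, 2 libraries per group) in listed sites per coverage (left) and in median-centred gene coverage (right) for each member (y axis, by role); the dashed line is the median of all genes tested, -0.35 on the left and -0.07 on the right. Most points on the left lie below 0 with Chd3 lowest at -2.03, and points on the right scatter on both sides of 0; Hdac1 has no point on the left.

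Sites of at least 40%, which are farther from the listing limit, gave smaller differences. Of 48 members, limma called 0 at an adjusted p of 0.05 (0% of 10002 genes in either direction), and edgeR also called 0 members. At an unadjusted p under 0.05, 7 members were lower and 1 higher, beside 8.96% and 2.73% of all genes. The median log2 change was -0.28, with -0.24 over all genes, and it turned to 0.03 when each library was centred on its median gene, with 0.07 over all genes.

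No change in gene coverage was called. The deposited coverage was centred on each library's median and tested with limma over 12520 genes, of which 0 passed (0% in either direction). The median log2 change was 0.00 over the members and -0.07 over all genes, and without centring -0.08 and -0.15. In bulk RNA, fewer cells with a transcript and less of it per cell cannot be told apart. In the deposited coverage, neither centred nor scaled to depth, both 8hr libraries were below both 0hr libraries in 11 of 49 members and above in 3. The shares over all genes were 28.1% and 10.1%. In the centred fit, 3 members were lower (8.34% of all genes) and 0 higher (4.4%) at an unadjusted p under 0.05. These were Smarca5, at -0.70 ± 0.25 (limma adjusted p = 0.367), Smarcc1, at -0.61 ± 0.21, and Hdac2, at -0.52 ± 0.21. The last 2 were picked after their values were seen. The highest estimate was that of Kat6b, at 0.48 ± 0.23 (limma adjusted p = 0.429). Across the 49 members within a library, site number followed coverage only loosely, with Spearman's rho between 0.475 and 0.612 as a description of genes that share a library.

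Most member sites did not recur. Of 7265 positions, 6631 (91.3%, Wilson 95% interval 90.6% to 91.9%) occurred in 1 library, 570 occurred in 2 libraries, 56 in 3 libraries and 8 in every library, and the share listed once over all genes was 91.4%. The 0hr libraries shared 215 member sites, 9.60% and 8.97% of their lists, and the 8hr libraries shared 89, 5.88% and 4.88% of theirs. Pairs of 1 library from each group shared between 108 and 137, which were 4.51% to 6.12% of a 0hr list and 6.97% to 7.52% of an 8hr list. An 8hr library shared more of its list with either 0hr library than with the other 8hr library, whose list was shorter. Of the positions listed in either library of a pair, the 8hr libraries shared 2.74% (Wilson 95% interval 2.23% to 3.36%). Pairs of 1 library from each group shared 2.84% to 3.49% of theirs, with overlapping intervals. Over all genes the values were 3.02% and 2.96% to 3.11%. Over sites with at least 50 reads in a 0hr library, 10.8% and 10.5% were listed again in the other 0hr library and between 5.39% and 6.93% in an 8hr library. The ratio of these shares was 0.575 for members and 0.557 for all genes, and for sites of at least 40% it was 0.332 and 0.297. Starting from an 8hr library, 6.78% and 5.65% of member sites were listed again in the other 8hr library and 8.05% to 8.83% in a 0hr library. For all genes these shares were 7.48% and 6.48%, and 7.87% to 8.47%. At levels of at least 40% the member shares were 2.64% and 3.26%, and 4.91% to 5.36%. Recovery in an 8hr list was thus low from either group. These intervals and shares cover counting error only, since PCR copies may remain among the reads.

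The pairs differed most at high levels. At a mean level of 10 to 40%, the 0hr pair shared 131 member sites and the 8hr pair 67, a ratio of 0.511 (all genes 0.555). At 40 to 90% the numbers were 59 and 20, a ratio of 0.339 (all genes 0.291), and at 90% or more they were 25 and 2, a ratio of 0.08 (all genes 0.113). The members thus followed the whole tables, with fewer shared sites at 8hr in every band and the lowest ratio in the top band. Of the 84 sites of at least 40% shared at 0hr, 12 (14.3%, Wilson 95% interval 8.37% to 23.3%) were listed in either 8hr library, close to the 14.2% of all genes. Of the 22 such sites shared at 8hr, 2 were listed in either 0hr library (9.09%, interval 2.53% to 27.8%), beside 21.7% of such sites over all genes.

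**Figure D3:**
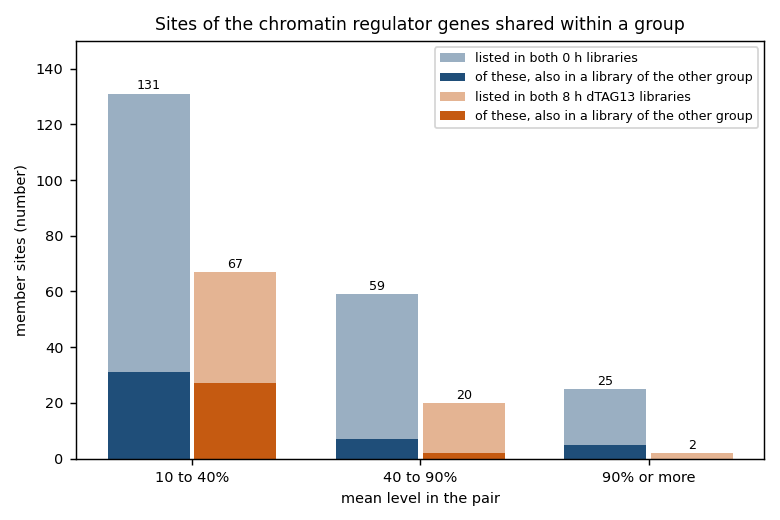
Number of member sites (y axis) listed in both libraries of a group, by mean level in that pair (x axis); pale bars are all shared sites and dark bars those also listed in a library of the other group. The numbers shared at 8hr are 67, 20 and 2, against 131, 59 and 25 at 0hr.

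Brd2, Kmt2d and Nsd1 held 6 each of those 84 sites, Kmt2a held 5 and Asxl1 held 4. Levels of these sites were not exact: the 0hr libraries differed by a median of 23.7 points, and by over 20 points at 44 of the 84. At the 22 sites of at least 40% shared at 8hr, the 8hr libraries differed by a median of 50.2 points, and by over 20 points at 15. The numbers of sites per level band therefore rest on means of values that often lay far apart. Depth was checked through other listed positions within 50 nt, a measure chosen after the data were seen. Of the 72 sites listed in neither 8hr library, 39 had such a position with at least 50 reads in 1 or both 8hr libraries, and 8 had it in both. For the other sites the tables do not show whether reads were present at 8hr. Conversely, 20 of the 22 sites shared at 8hr were listed in neither 0hr library. Of these 20, 15 had such a position with at least 50 reads in 1 or both 0hr libraries, and 7 had it in both. Covered sites thus went unlisted in both directions.

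The highest 0hr sites with at least 50 reads in both libraries, taking 1 per gene, show what these records look like. They were ranked by 0hr level, so lower or missing 8hr values follow in part from that choice. Bptf at chr11:107001881 was at 100% in both 0hr libraries, from 93 and 88 reads, Setd1a at chr7:127395757 was at 95.5% and 99.1%, and Kmt2d at chr15:98761559 at 96.9% and 96.8%. Arid1b at chr17:5393523 was at 100% and 87.8%, Chd2 at chr7:73079140 at 95.5% and 85.6%, and Chd7 at chr4:8867442 at 67.7% and 92.5%. None of these 6 was listed at 8hr. Near the Arid1b site, positions within 50 nt had up to 45 and 248 reads in the 8hr libraries, and near the Setd1a site up to 94 in the second. Near the Chd7 site the second had up to 35. For Bptf, Kmt2d and Chd2, no position within 50 nt was listed in either 8hr library, so coverage of these sites at 8hr is not known. In 3 further genes the site was listed in 1 of the 8hr libraries at a lower level: Asxl1 at chr2:153242260 had 90.7% and 100% at 0hr and 26.6% in the first, Kdm5b at chr1:134552604 had 87.1% and 88.7% and then 30.2% in the first, and Ep300 at chr15:81535307 had 93.1% and 96.3% and then 59.0% in the second. Each of these 8hr values came from 94 to 199 reads. Coordinates are as the tables list them. The submitters' processing notes name mm10, but only 1 of 49 members had every site of the first 0hr library inside its GRCm38 interval, so the build is not settled and exon, intron and UTR were not assigned.

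**Figure D4:**
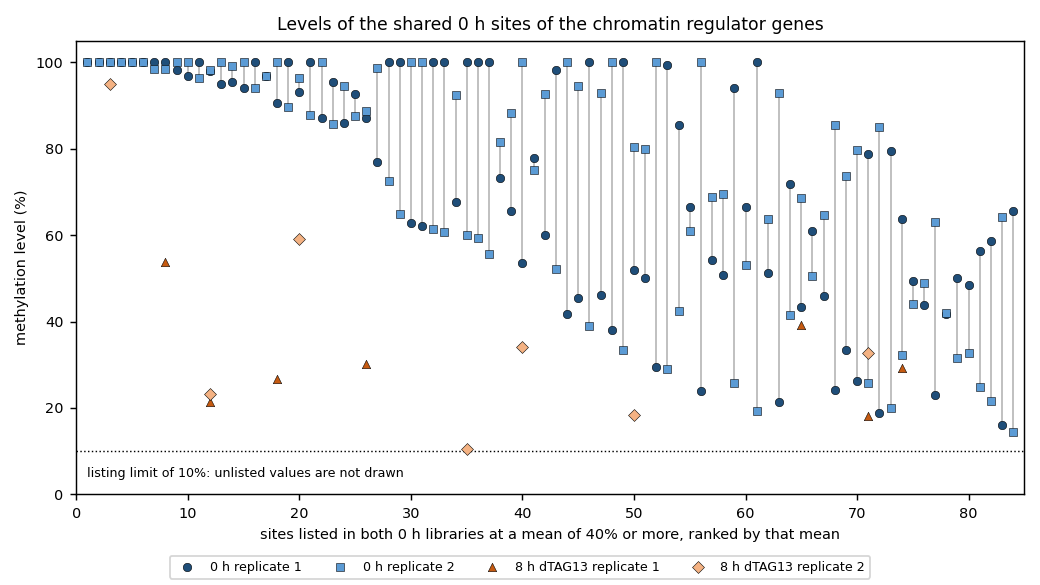
Methylation level in percent (y axis) of the 84 member sites listed in both 0hr libraries at a mean of at least 40%, ranked by that mean (x axis); grey lines join the 0hr libraries, and 8hr symbols appear only where the site was listed, above the dotted limit of 10%. Symbols for 8hr are present at 12 of the 84 sites, and the 0hr libraries lie far apart at many sites below the highest ranks.

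The 2 of these 84 sites with the most reads, picked after the values were seen, had closer replicates. More reads did not always go with this: Chd1 at chr17:15991022 was at 51.8% and 80.4% at 0hr, from 826 and 632 reads. Hdac2 at chr10:36877661 was at 66.4% and 61.1% at 0hr, from 5982 and 5942 reads, and was not listed at 8hr. No position within 50 nt of it was listed in either 8hr library. The second 8hr library had 3267 reads at a listed position 69 nt away, and 222 at one 75 nt away on the other side. Kdm5b at chr1:134559353 was at 41.8% and 41.9% at 0hr, from 788 and 872 reads, and was also not listed at 8hr. The first 8hr library had 313 reads at a listed position 22 nt away, so reads were present near this site in at least 1 treated library.

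Levels could be tested directly only where every library listed the site with 20 reads or more, which held for 8 member sites in 7 genes out of 2321 sites. The quasi-binomial model with limma's moderated dispersion called 1 member site, lower at 8hr, beside 2.2% of all sites called lower and 0.0862% higher. At an unadjusted p under 0.05, 1 member site was lower and 1 higher, beside 5.95% and 3.4% of all sites. It lies in Kat6b at chr14:21721207 on the plus strand and had levels of 97.9% and 98.2% at 0hr and 21.3% and 23.1% at 8hr, from 238, 166, 197 and 121 reads. Replicates differed by under 2 points while the difference between groups was -75.8 points (98.0% ± 0.208 and 22.2% ± 1.29, SD, n = 2; adjusted p = 0.00700). The call was lost without any 1 library, with adjusted p between 0.0592 and 0.107 at differences between -74.9 and -76.7 points. In 6 of the 7 genes, Kat6b among them, the reads summed per gene are those of its only tested site, so the gene test repeats the site test. It called Kat6b (adjusted p = 0.00539) and no other member, beside 4.53% of 1016 genes called lower and 0% higher, with 1 member lower and 1 higher at an unadjusted p under 0.05 (10.2% and 3.64% of genes). That call was likewise lost without any 1 library (0.0599 to 0.0755).

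The other 7 tested sites had low levels at 0hr, with 1 exception, and none was called. Arid2 at chr15:96300860 was at 11.7%, 10.9%, 15.6% and 15.8%, with both 8hr values above both 0hr values (quasi-binomial adjusted p = 0.313). Dnmt1 at chr9:20818584 was at 16.1%, 19.8%, 14.1% and 14.7%, and Kmt2b at chr7:30274943 at 20.0%, 17.0%, 20.4% and 23.7%. The differences were -3.56 points for the former, with both 8hr values below both 0hr values, and 3.52 points for the latter, with both 8hr values above both 0hr values. Brd2 at chr17:34331403 was at 78.7%, 25.8%, 18.2% and 32.7%, so that the 0hr libraries differed more than the groups. A second Brd2 site at chr17:34331058 was at 12.0%, 18.9%, 17.4% and 16.7%, Asxl1 at chr2:153245264 at 22.3%, 14.6%, 17.2% and 13.2%, and Brd3 at chr2:27336236 at 23.8%, 21.6%, 20.0% and 24.9%. In these 3 the groups overlapped, and the sign of the difference turned when 1 library was left out. Requiring a site in all 4 libraries removes sites that dropped under the listing limit at 8hr, so these 8 sites are not a sample of the 7265.

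Position and neighbourhood differed between kinds of site in ways that the choice of genes did not use. Among member sites at 10 to 40%, between 36.2% and 40.8% per library had another listed site within 10 nt, against 21.5% to 23.7% of sites at 40% or more, and over all genes the ranges were 34.3% to 37.6% and 20.4% to 22.6%. Of sites shared by the 0hr pair, 38.6% (Wilson 95% interval 32.4% to 45.3%) lay within 2000 nt of the gene's 3'-most listed position, compared with 30.8% (29.7% to 31.9%) of sites listed once. For the 84 shared 0hr sites of at least 40% the share was 25.0% (17.0% to 35.2%), below that of sites listed once, with overlapping intervals. Over all genes the 3 shares were 58.7%, 48.9% and 58.6%. Member sites thus lay farther from that end, at a median of 6028 nt for sites listed once, against 2101 nt over all genes. Distances are genomic, include introns and were not scaled to gene length. The part of gene length in this difference was not tested.

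A further 68 chromatin genes outside the 49, such as Kdm6a, an H3K27 demethylase, served as the rest of the pathway. They had 2703, 2729, 1781 and 1952 listed sites, a ratio of 0.687, with summed sites per 100 coverage units of 21.6, 21.1, 21.2 and 16.4. Of 67 tested, limma called 0 in sites per coverage in either direction (all genes 0.551% lower and 0.00984% higher). At an unadjusted p under 0.05, 15 were lower and 2 higher, beside 17.4% and 1.29% of all genes. The median log2 change of the 67 was -0.33, with -0.35 over all genes. Both 8hr libraries were below both 0hr libraries in site number in 38 of 67 (56.7%) and above in 3 (4.48%). Over all genes these shares were 50.1% and 4.3%. The 0hr pair shared 245 of their sites and the 8hr pair 118, a ratio of 0.482, beside 0.414 for the 49 members and 0.445 for all genes.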

How the data were processed

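The authors deposited 1 table of called positions per library, and replicates were not pooled. Per the file headers, the deposited counts are the A and G reads and the A reads of a position, unnormalised. The deposited fraction of A reads (the level) matched those counts at 100% of positions. A second deposited fraction gives the conversion of the gene. The coverage signal deposited by the authors is 1 value per gene and library, not scaled to depth. The authors' deposited adjusted p-value was at most 0.00401 at any listed position. The aligner, the caller and duplicate removal were not given in the sources used here, and the submitters' processing notes name mm10.

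Members, role groups and lists were chosen with earlier results of these data known. Levels were tested with a quasi-binomial model (R 4.3.3; dispersion moderated by limma 3.58.1 and held at 1 or above) at sites that every library listed with 20 reads or more, and on reads summed per gene. Log2((listed sites + 1)/coverage), not centred, was tested with limma in genes with a mean of at least 5 listed sites (2 for sites of 40% or more), and median-centred log2 coverage in all genes with coverage in 4 libraries. Values of p were two-sided and adjusted over all features (Benjamini-Hochberg, 0.05). Models were tested on simulated data. Alternatives included edgeR 4.0.16, other filters, other centring, a replicate block and leaving out each library. All 49 members were accounted for by role. The rule for named genes took the 10 with most sites, the 3 with most and fewest per coverage, the 5 largest changes each way, coverage extremes and genes with a tested site, and fitted changes are given for these; site numbers of the other members were added to complete the role groups. Named sites were the tested ones and the 10 highest at 0hr, 1 per gene. Sequences and transcript regions were not used here.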

Additional observations from a re-analysis of the deposited data

How the results depend on the processing

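Numbers of calls depended strongly on the settings. Counts below are over all features, with members in brackets. Sites with a changed level numbered 53 (1) and became 531 (4) with Fisher's exact test on summed reads and 0 (0) without any 1 library; genes with a changed level numbered 46 (1), and 0 to 5 (0) without 1 library. Sites per coverage gave 57 calls (0), and 2 to 893 (0 to 5) without 1 library, 164 (1) with edgeR, 159 (2) with a mean of 10 sites, 2 with sites of at least 50 reads, and 0 without division by coverage, with centring, with a pseudocount of 0.5, with a mean of 1 site or with levels of at least 20%. Sites of at least 40% gave 0 calls (0), 0 to 201 (0 to 1) without 1 library, and 2 with edgeR. Coverage gave 0 calls and 15 without centring. The ratio of member sites was 0.719, and 0.653 to 0.786 without 1 library. The recovery ratio of 0.575 became 0.697 at 200 reads and 0.332 at levels of at least 40%. The causes were not tested.

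Among values that were not called, signs turned for Asxl1 (-7.10 to 0.613 points without 1 library, site and gene), Brd2 at chr17:34331058 (-1.88 to 5.04 points), Brd3 (-2.66 to 2.21 points, and 1.36 by Fisher's exact test), Chd4 (-0.017 to 0.59, and -0.30 without division by coverage), Eed (-0.14) and Smarca5 (-0.38), both without division, and the median of member sites of at least 40% (0.028 with centring).

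Replicate numbers did not pair the libraries: deviations of libraries with the same number correlated at 0.002 to 0.056. With replicate number as a block, calls became 0 (0) for site levels, 0 (0) for gene levels, 486 (6) for sites per coverage and 53 (1) for sites of at least 40%. The Kat6b site then had an adjusted p of 0.117 at the same difference of -75.8 points. Depth limits what 2 libraries per group can show, since a position enters a table only above the calling limits. The first 8hr library had the lowest median of reads per site and the lowest read sum over listed sites.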
